A study of Mus musculus with 20 samples.

Results

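The genes described here are 34 genes of fat-cell identity and fat metabolism, named from their known roles, of which 31 were measured among 22180 genes on mouse gene arrays. Each gene was read by the probe set that carried its symbol alone, the brightest over the 20 arrays where there was more than 1. Cfd, Acsl1 and Adrb3 were not analysed here. RNA came from abdominal skin of mice in 4 groups of 5 arrays: knockout mice (zfp36 fl/fl K14 cre) under imiquimod, knockout mice under mock treatment, control littermates (zfp36 fl/fl) under imiquimod and control littermates under mock treatment. All mice thus carried floxed Zfp36, which encodes tristetraprolin, a protein that promotes the decay of messenger RNAs. The knockouts also carried a Cre recombinase under the promoter of keratin 14, a gene of basal keratinocytes, so the design deletes Zfp36 in the epidermis and not in fat cells. Imiquimod, a Toll-like receptor 7 agonist that inflames mouse skin, or mock treatment was given on 5 days in a row, and skin was taken 4 hours after the last dose. The 5 arrays of a group came from 5 animals, and the labels name no strain, age or sex.

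Mouse skin carries a layer of fat cells beneath the dermis, which grows and thins with the hair cycle, and a sheet of striated muscle under it. White fat cells take up fatty acids and glucose, join them into triglyceride, wrap the triglyceride in a droplet coated by perilipins, and break it down again on demand. PPARγ and the C/EBP factors switch on this programme, and the finished cell secretes adiponectin, leptin and resistin. Many genes of this programme also work in other skin cells: sebaceous gland cells, keratinocytes and macrophages store neutral lipid, and muscle burns it. Whole skin was measured, so fewer fat cells, less RNA per fat cell and a larger share of RNA from other cells cannot be told apart.

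Values are probe set levels on a scale taken as log2, where a difference of 1 is a doubling, and every difference with an SE compares groups of 5 arrays. The 20 arrays had medians between 4.94 and 5.04 and correlated between 0.946 and 0.988 over all probe sets. No measure of background was used, so it is unknown which genes lay above it. Zfp36 averaged 6.4 ± 0.85 in knockout and 8.0 ± 0.26 in control skin under imiquimod, and 5.43 ± 1.54 in knockout and 7.46 ± 0.22 in control skin under mock treatment (SD, n = 5 each). Within a treatment the knockout arrays were all lower than the control arrays (exact two-sided permutation p = 0.00794 in both treatments, the smallest that 5 against 5 can give). In each group the array farthest from the group median in hair genes was set apart, a rule that fixed their number at 4. The mean of 25 hair shaft and follicle genes was 9.06 in replicate 1 of knockout skin under imiquimod against a group median of 5.88, and 9.22 in replicate 5 of control skin under imiquimod against 5.92. Under mock treatment it was 5.98 in replicate 3 of knockout skin against a median of 9.64, and 6.02 in replicate 5 of control skin against 9.96. Replicate 4 of the imiquimod knockouts, at 7.37, and replicate 2 of the mock-treated knockouts, at 7.84, also stood away from their group medians. Fits without the 4 arrays set apart kept both.

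The first comparison asked what imiquimod did to these genes in each genotype. Some markers of fat cells, Fabp4, Lep and Car3 among them, fell in knockout skin, while Cebpb, Plin2 and Dgat1 rose. In knockout skin 11 of the 31 genes fell and 3 rose, with a median log2 difference of -0.558, against -0.002 over all genes. Of all 22180 genes, 9.71% fell and 11.1% rose in that comparison, 20.8% in either direction (limma, adjusted p under 0.05). In control skin 2 fell and 5 rose, with a median of 0.07 against -0.004, where 4.37% of all genes fell and 6.47% rose (10.8% in all). Fabp4 fell and Cebpb, Plin2 and Dgat1 rose in both genotypes. Averaged over both genotypes, 11 fell and 5 rose, where 13.7% of all genes fell and 14% rose (27.7% in all), and 13 of the 31 passed in none of these 3 comparisons. Skeletal muscle genes moved beside the fat genes in knockout skin, where 13 of 20 fell and 1 rose, while in control skin 0 fell and 1 rose (limma, 2 of 20 at an unadjusted p under 0.05). With the mean of the muscle genes as a covariate, 2 fat genes (Fabp4 and Car3) fell and 5 rose in knockout skin, and the median difference of the 31 was -0.0022. That muscle mean itself differed between the knockout groups without overlap, so fits with it cannot separate muscle from treatment there. Without the 4 arrays set apart by hair genes, 4 fell and 4 rose in knockout skin. Without replicate 4 of the imiquimod knockouts alone, 6 fell and 3 rose there. Without replicate 3 of the mock-treated knockouts alone, 7 fell and 4 rose there with a median of -0.29, and 5 fell and 6 rose in control skin. Leaving out any 1 array, 3654 to 4952 of all genes were called in knockouts and 1619 to 2989 in controls. Counts over all genes with the covariates or without the 4 arrays are not given here, so those member counts have no background beside them.

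**Figure D1:**
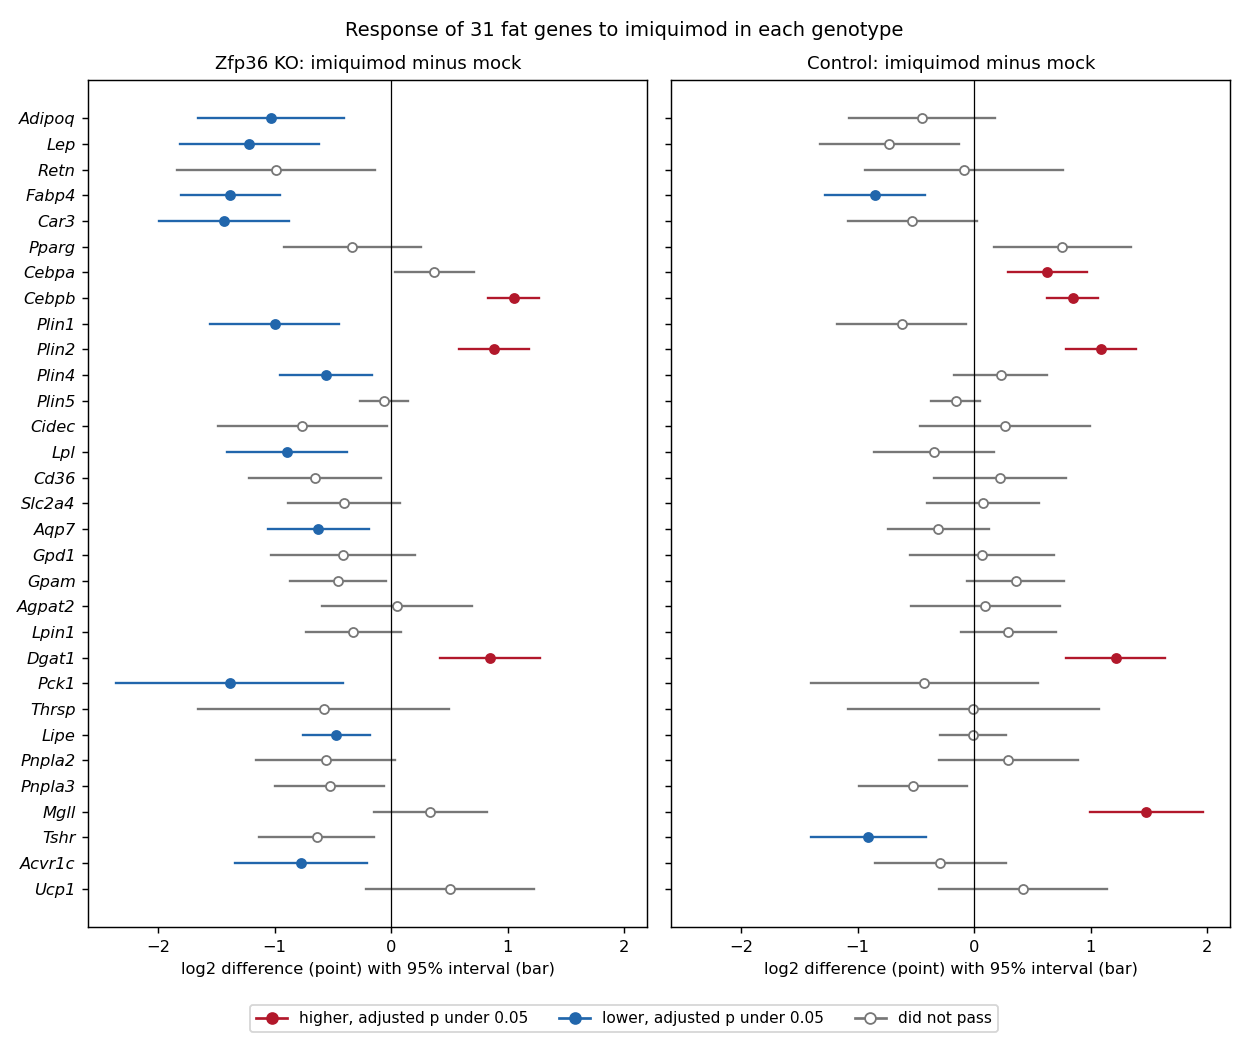
Log2 difference between imiquimod and mock treatment (point, horizontal axis) with its 95% interval (bar) for the 31 fat genes, in knockout skin on the left and control skin on the right. Blue points fell, red points rose and open grey points did not pass at an adjusted p of 0.05: 11 genes fell and 3 rose in knockout skin, and 2 fell and 5 rose in control skin.

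Of the 5 genes grouped as secreted and marker proteins (Fabp4, Car3, Lep, Adipoq and Retn), 4 fell in knockouts and 1 in controls. Plin1 and Cidec, also markers of fat cells, are counted with the droplet coat below. Plin1 fell in knockouts alone, and Cidec did not pass in either genotype. Fabp4, the fatty acid carrier of fat cells, stood at 9.36, 9.68, 10.2, 9.34 and 9.88 in knockout skin under imiquimod against 10.54, 10.79, 11.7, 11.39 and 10.94 under mock treatment. Controls read 10.58, 10.01, 9.8, 9.88 and 9.78 under imiquimod against 10.93, 10.67, 10.99, 10.65 and 11.07 under mock treatment. No imiquimod array reached a mock array of its genotype. The difference was -1.38 ± 0.21 (SE, adjusted p = 6.34e-05) in knockouts, a 2.6-fold lower level, and -0.85 ± 0.21 (SE, adjusted p = 0.00919) in controls, 1.8-fold lower. Arrays that separated downwards in this way made up 6.53% of all genes in knockouts and 2.74% in controls. The Fabp4 call held in both genotypes in every setting tried, among them the muscle covariate (adjusted p = 0.00204 in knockouts) and the fit without the 4 arrays set apart by hair genes (0.000509).

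Car3, carbonic anhydrase 3, is abundant in fat cells and in slow muscle fibres. It stood at 9.85, 10.56, 10.8, 9.76 and 11.11 in knockout skin under imiquimod against 11.43, 11.98, 12.51, 11.97 and 11.37 under mock treatment. The control arrays gave 11.63, 11.53, 11.05, 10.96 and 10.85 under imiquimod against 11.43, 11.28, 12.04, 11.67 and 12.25 under mock treatment. The knockout groups did not overlap and the control groups did. Car3 fell by 1.44 ± 0.27 in knockouts, 2.71-fold lower (SE, adjusted p = 0.000602), and its difference in controls was -0.53, adjusted p = 0.237. A second, dimmer probe set of Car3 gave -1.33 in knockouts (adjusted p = 0.0374).

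Lep encodes leptin, the hormone that reports the size of the fat stores. Its values were 5.99, 5.63, 5.77, 5.52 and 6.19 in knockout skin under imiquimod against 6.43, 7.41, 8.12, 6.88 and 6.35 under mock treatment. They were 6.35, 6.65, 6.07, 5.95 and 6.52 in control skin under imiquimod against 6.56, 6.48, 7.32, 7.08 and 7.74 under mock treatment. Imiquimod and mock arrays stood fully apart in knockouts and overlapped in controls. Lep fell to a 2.33-fold lower level in knockouts (log2 difference -1.22 ± 0.28 SE, adjusted p = 0.00412), and its difference in controls was -0.73, adjusted p = 0.113. With the muscle covariate the knockout difference was -0.58 and its call was lost (adjusted p = 0.153).

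Adipoq, which encodes adiponectin, a hormone of fat cells, stood at 6.27, 6.78, 6.9, 6.2 and 7.0 in knockout skin under imiquimod against 6.96, 7.74, 8.92, 7.72 and 6.96 under mock treatment. Among controls the values were 7.55, 7.35, 6.98, 6.91 and 6.88 under imiquimod against 7.27, 6.96, 7.92, 7.62 and 8.13 under mock treatment. The groups overlapped in both genotypes, and the highest value, 8.92, came from replicate 3 of the mock-treated knockouts. Adipoq fell 2.04-fold in knockouts (log2 difference -1.03 ± 0.3 SE, adjusted p = 0.0178), and in controls its difference was -0.45, adjusted p = 0.417. The knockout call was lost without replicate 4 under imiquimod (adjusted p = 0.0509), without the 4 arrays set apart by hair genes (0.074) and with the muscle covariate (0.478). Retn, which encodes resistin, did not pass in either genotype (-0.99, adjusted p = 0.0968 in knockouts and -0.09, adjusted p = 0.942 in controls).

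**Figure D2:**
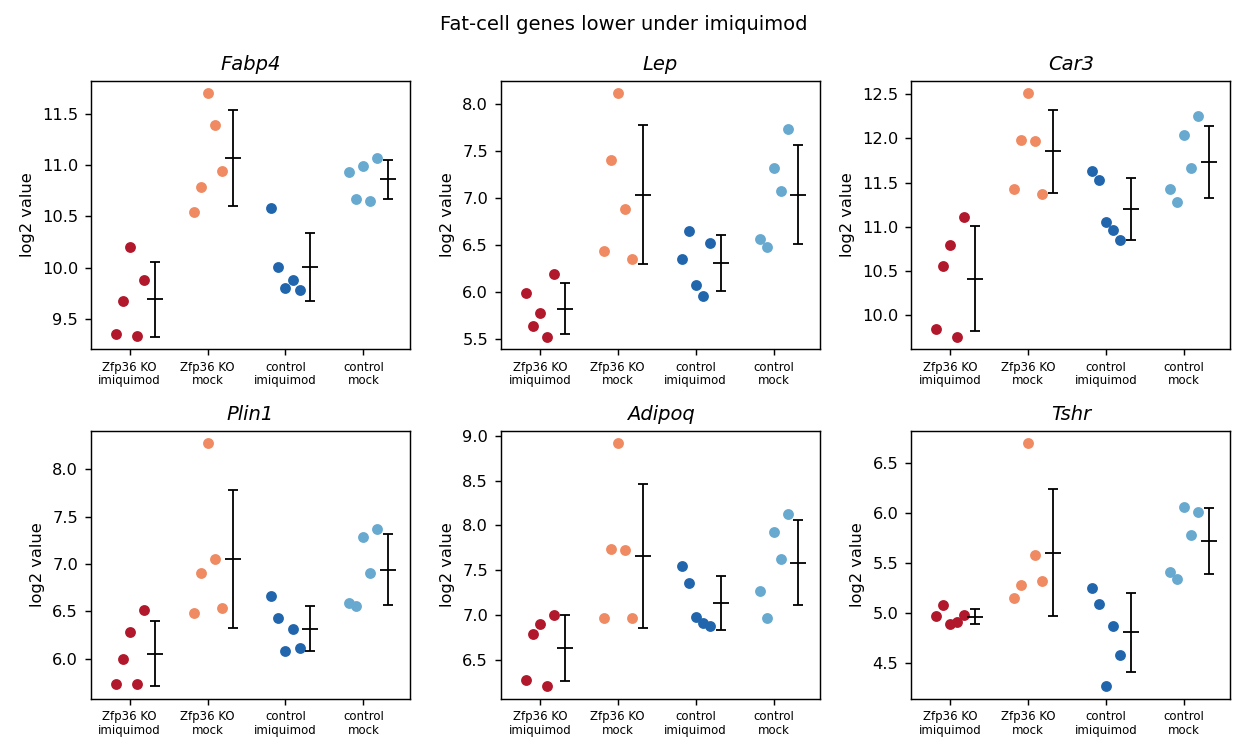
Log2 values of 6 fat-cell genes in each of the 20 arrays (points, in replicate order within a group), with the group mean and SD as a black bar (n = 5). The vertical axes do not start at 0. Fabp4 under imiquimod lies below mock treatment in both genotypes, and Lep and Car3 do so in the knockouts.

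Of the 3 transcription factors of the programme, 1 rose in knockouts and 2 in controls. Cebpb, an early factor of fat-cell formation that also acts in inflamed and stressed epidermis, stood at 8.34, 8.24, 8.32, 8.05 and 8.34 in knockout skin under imiquimod against 7.3, 7.14, 7.25, 7.04 and 7.3 under mock treatment. Control skin had 8.24, 8.27, 8.23, 8.35 and 7.82 under imiquimod against 7.31, 7.55, 7.09, 7.51 and 7.22 under mock treatment. The groups stood apart in both genotypes, a separation upwards that 7.16% of all genes showed in knockouts and 5.6% in controls. Cebpb rose 2.07-fold in knockouts (log2 difference 1.05 ± 0.11 SE, adjusted p = 5.54e-07) and 1.8-fold in controls (0.85 ± 0.11 SE, adjusted p = 1.27e-05), in every setting tried.

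Cebpa, a factor of finished fat cells that is also expressed in epidermis and sebaceous glands, stood at 8.02, 8.37, 8.24, 8.13 and 8.47 in knockout skin under imiquimod against 7.67, 7.81, 8.42, 7.72 and 7.76 under mock treatment. Controls read 8.38, 8.49, 8.03, 8.56 and 7.91 under imiquimod against 7.25, 7.53, 7.72, 7.66 and 8.07 under mock treatment, and the groups overlapped in both genotypes. It rose in controls (0.63 ± 0.16 SE, adjusted p = 0.0149) and did not pass in knockouts (0.37, adjusted p = 0.12). Without replicate 3 of the mock-treated knockouts it did pass there (0.51, adjusted p = 0.0211), as it did with the muscle covariate (0.000298). With the hair genes as a covariate the control call was lost (adjusted p = 0.196). Pparg, the nuclear receptor that directs fat-cell formation and is also active in sebaceous glands, averaged 6.5 ± 0.42 under imiquimod and 6.83 ± 0.75 under mock treatment in knockouts, and 7.05 ± 0.21 under imiquimod and 6.29 ± 0.42 under mock treatment in controls (SD, n = 5 each). It did not pass in either genotype (-0.33, adjusted p = 0.482 and 0.76, adjusted p = 0.0944). In controls Pparg passed upwards without replicate 3 of the mock-treated knockouts (adjusted p = 0.0177), whose spread enters the shared estimate, with the muscle covariate (0.0236) and without the 4 arrays set apart by hair genes (0.00265). With the hair covariate it passed downwards in knockouts (-0.79, adjusted p = 0.00476).

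C/EBP proteins bind a short palindrome, and the promoters of fat-cell genes are among their known targets. The 250 bases before the start site of 3 genes that fell in knockouts and of Plin2, which rose, are therefore shown 5′ to 3′ on the gene's strand, from RefSeq on GRCm38.p6. Capitals mark the C/EBP core TTNNGNAA on either strand and the nuclear receptor core AGGTCA on either strand (TGACCT on the other).
Lep, chr6:29059971-29060220, plus strand: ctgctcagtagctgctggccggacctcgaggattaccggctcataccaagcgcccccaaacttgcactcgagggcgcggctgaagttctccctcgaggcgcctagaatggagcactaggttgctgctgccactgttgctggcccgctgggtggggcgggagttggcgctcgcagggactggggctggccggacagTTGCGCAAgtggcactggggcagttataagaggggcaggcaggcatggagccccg
Plin1, chr7:79732777-79733026, minus strand: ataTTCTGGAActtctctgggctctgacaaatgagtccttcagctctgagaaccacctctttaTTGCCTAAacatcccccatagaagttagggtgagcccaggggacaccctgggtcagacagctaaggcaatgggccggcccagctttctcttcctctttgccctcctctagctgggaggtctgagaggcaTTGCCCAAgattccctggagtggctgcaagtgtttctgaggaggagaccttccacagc
Adipoq, chr16:23146286-23146535, plus strand: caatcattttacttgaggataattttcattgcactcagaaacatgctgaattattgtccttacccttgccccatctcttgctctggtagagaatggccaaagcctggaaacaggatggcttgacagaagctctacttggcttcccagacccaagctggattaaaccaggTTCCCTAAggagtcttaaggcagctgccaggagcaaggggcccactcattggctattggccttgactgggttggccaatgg
Plin2, chr4:86670060-86670309, minus strand: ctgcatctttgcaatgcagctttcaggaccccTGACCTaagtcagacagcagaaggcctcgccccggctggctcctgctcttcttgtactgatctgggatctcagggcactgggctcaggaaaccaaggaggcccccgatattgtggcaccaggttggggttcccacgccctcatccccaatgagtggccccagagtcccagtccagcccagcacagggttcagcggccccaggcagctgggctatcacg
Lep holds the perfect palindrome TTGCGCAA, beginning at base -55 from the start site. Plin1 holds 3 matches to the C/EBP core, the nearest beginning at -58, and Adipoq 1 beginning at -81. Plin2 has no match to that core in this window and 1 nuclear receptor core, beginning at -218. These genes were picked as examples and do not stand for all genes that fell or rose. Of the other genes that fell in knockouts, only Pck1 and Aqp7 had a C/EBP match, and some had no promoter in the table. Among the 31 genes 24 had 33 promoters in the table, of which 10 (30.3%) held the C/EBP core, against 36.8% of all 32851 promoters. The nuclear receptor core was in 10 of the 33 (30.3%), against 14% of all. The PPAR direct repeat, 2 such cores AGGTCA spaced by 1 base, was in 0 of the 33 and in 0.0335% of all. A match to these letters is a description of the sequence and shows no binding.

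The coat of the lipid droplet was split by perilipin. Plin1, the perilipin of the large droplet of fat cells, stood at 5.73, 6.0, 6.28, 5.73 and 6.51 in knockout skin under imiquimod against 6.48, 6.9, 8.28, 7.05 and 6.54 under mock treatment. The control arrays gave 6.66, 6.43, 6.08, 6.31 and 6.11 under imiquimod against 6.59, 6.56, 7.29, 6.9 and 7.37 under mock treatment. Plin1 fell 2-fold in knockouts (-1.0 ± 0.27 SE, adjusted p = 0.0099) and did not pass in controls (-0.62, adjusted p = 0.148). The groups overlapped by 1 imiquimod array in each genotype. The knockout call was lost with the muscle covariate (adjusted p = 0.313) and in no other setting tried.

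Plin2, the perilipin of small droplets in most cell types, sebaceous cells and macrophages included, stood at 8.32, 8.64, 8.7, 8.54 and 8.47 in knockout skin under imiquimod against 7.56, 7.46, 8.15, 7.54 and 7.55 under mock treatment. Among controls the values were 8.89, 8.79, 8.86, 8.76 and 8.11 under imiquimod against 7.39, 7.76, 7.73, 7.46 and 7.63 under mock treatment. All imiquimod arrays were above all mock arrays in each genotype, although replicate 5 of the imiquimod controls, with its high hair genes, was the lowest of its group. Plin2 rose 1.84-fold in knockouts (0.88 ± 0.14 SE, adjusted p = 0.000182) and 2.13-fold in controls (1.09 ± 0.14 SE, adjusted p = 2.89e-05), in every setting tried. Plin4, a perilipin of nascent droplets, fell in knockouts (-0.56 ± 0.19 SE, adjusted p = 0.042) and not in controls (0.23, adjusted p = 0.546); without replicate 3 of the mock-treated knockouts its difference was -0.34 (adjusted p = 0.109), and the call was lost without any of 7 arrays. Plin5, the perilipin of oxidative tissue, and Cidec, which fuses droplets, did not pass in either genotype, at -0.06 and -0.76 in knockouts and -0.16 and 0.26 in controls.

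Of the 4 genes of fuel uptake and glycerol release, Lpl and Aqp7 fell in knockouts and none passed in controls (limma, 0 of 4 also at an unadjusted p under 0.05). Lpl, the enzyme that frees fatty acids from circulating lipoproteins, stood at 8.28, 8.79, 9.18, 8.03 and 8.8 in knockout skin under imiquimod against 9.1, 9.22, 10.31, 9.68 and 9.26 under mock treatment. Control skin had 9.29, 9.03, 8.94, 8.79 and 8.7 under imiquimod against 8.89, 8.7, 9.54, 9.54 and 9.81 under mock treatment. The groups overlapped in both genotypes, by 1 imiquimod array (replicate 3) in the knockouts. Lpl fell 1.86-fold in knockouts (-0.9 ± 0.25 SE, adjusted p = 0.0126); its second, dimmer probe set gave -0.49 and did not pass (adjusted p = 0.431), so the probe sets disagree on the call. Lpl lost it too with the mean of its probe sets (0.106), without the 4 arrays set apart by hair genes (0.0641) and with the muscle covariate (0.295).

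Aqp7, the channel through which glycerol leaves fat cells, stood at 5.98, 5.77, 6.3, 5.68 and 6.33 in knockout skin under imiquimod against 6.01, 6.66, 7.46, 6.69 and 6.37 under mock treatment. Controls read 6.32, 6.25, 6.05, 6.18 and 6.16 under imiquimod against 6.27, 6.08, 6.78, 6.41 and 6.96 under mock treatment. Aqp7 fell in knockouts by 0.63 ± 0.21 (SE, adjusted p = 0.0379), with 1 array, replicate 1 of the mock group, among the imiquimod values. Its difference was -0.42 without replicate 3 of the mock-treated knockouts (adjusted p = 0.11), and the call was lost without any of 6 arrays. Cd36, a fatty acid receptor also found on macrophages and capillaries, and Slc2a4, the insulin-driven glucose carrier of fat and muscle, did not pass (knockout differences -0.65 and -0.41, control differences 0.22 and 0.07).

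Of 7 genes of triglyceride synthesis, 1 rose and 1 fell in knockouts and 1 rose in controls. Dgat1, which adds the last fatty acid to triglyceride in many tissues, skin included, stood at 7.73, 8.05, 8.04, 7.74 and 7.67 in knockout skin under imiquimod against 6.77, 6.67, 7.86, 6.89 and 6.79 under mock treatment. The control arrays gave 8.01, 7.98, 8.09, 7.87 and 7.38 under imiquimod against 6.11, 6.54, 7.1, 6.61 and 6.9 under mock treatment. In controls all imiquimod arrays were above all mock arrays, and in knockouts only replicate 3 of the mock group reached them. Dgat1 rose 1.8-fold in knockouts (0.85 ± 0.2 SE, adjusted p = 0.00513) and 2.32-fold in controls (1.21 ± 0.2 SE, adjusted p = 0.000419), in every setting tried.

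Pck1, which makes the glycerol backbone from small acids in fat cells, stood at 5.94, 5.72, 6.45, 5.8 and 6.44 in knockout skin under imiquimod against 6.3, 6.95, 9.49, 7.36 and 7.19 under mock treatment. Among controls the values were 8.38, 7.04, 6.34, 6.34 and 6.3 under imiquimod against 6.91, 6.81, 7.65, 7.03 and 8.14 under mock treatment. The groups overlapped in both genotypes. Replicate 3 of the mock-treated knockouts stood 2.03 above their mean and replicate 1 of the imiquimod controls 1.5 above theirs. Pck1 fell in knockouts (-1.39 ± 0.47 SE, adjusted p = 0.0394), and without that mock replicate its difference was -0.88 (adjusted p = 0.106). The call was lost without any of 6 arrays. Gpd1, Gpam, Agpat2, Lpin1 and Thrsp, which make glycerol phosphate, build and trim the intermediates or promote lipid synthesis, did not pass in either genotype, between -0.58 and 0.05 in knockouts and -0.01 and 0.36 in controls.

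Of 4 enzymes of triglyceride breakdown, 1 fell in knockouts and another rose in controls. Mgll, which cleaves the last fatty acid from the glycerol and degrades endocannabinoids in many tissues, stood at 8.51, 9.02, 9.28, 7.83 and 9.17 in knockout skin under imiquimod against 8.51, 8.5, 8.95, 8.18 and 7.99 under mock treatment. Control skin had 9.73, 9.41, 9.51, 9.64 and 9.05 under imiquimod against 7.63, 7.76, 8.3, 8.0 and 8.26 under mock treatment. The control groups were fully apart and the knockout groups overlapped. Mgll rose 2.79-fold in controls (1.48 ± 0.23 SE, adjusted p = 0.000209) and did not pass in knockouts (0.34, adjusted p = 0.37). The difference between these responses was -1.14 ± 0.33 (SE, adjusted p = 0.501), with a 95% interval of -1.83 to -0.45, and did not pass.

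Lipe, the hormone-sensitive lipase, fell in knockouts (-0.47 ± 0.14 SE, adjusted p = 0.0172) and was at -0.01 in controls. Its knockout call was lost without replicate 4 of the mock group (adjusted p = 0.0501) and with the muscle covariate (0.144). Pnpla3, a lipase close to the main fat-cell lipase, stood at 6.44, 6.56, 6.61, 5.78 and 6.69 in knockout skin under imiquimod against 6.64, 6.75, 7.91, 6.74 and 6.68 under mock treatment. Controls read 6.42, 6.36, 6.14, 6.31 and 6.41 under imiquimod against 6.36, 6.75, 7.15, 6.67 and 7.34 under mock treatment. The groups overlapped in both genotypes. Pnpla3 was at -0.53 in knockouts and -0.53 in controls, passed in neither, and fell averaged over both genotypes (-0.53, adjusted p = 0.0158). The averaged call was lost with the muscle covariate (-0.29, adjusted p = 0.135). In controls Pnpla3 passed downwards with that covariate (adjusted p = 0.0391) and without replicate 3 of the mock-treated knockouts (0.0458), and with the hair covariate it did so in both genotypes (0.00459 in knockouts and 0.00963 in controls). Pnpla2, which starts triglyceride breakdown, did not pass (-0.56, adjusted p = 0.189 in knockouts and 0.29, adjusted p = 0.617 in controls).

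**Figure D3:**
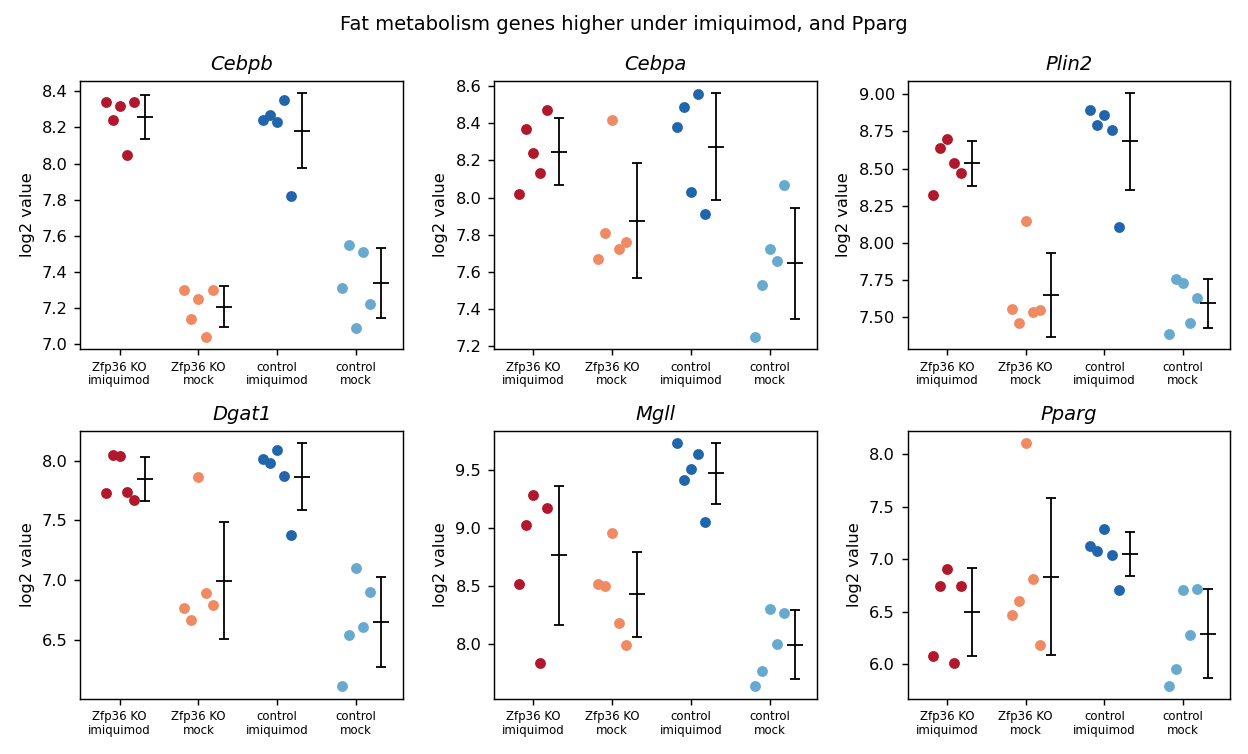
Log2 values of 5 genes that rose under imiquimod in at least 1 genotype, and of Pparg, in each of the 20 arrays (points, in replicate order within a group), with the group mean and SD as a black bar (n = 5). The vertical axes do not start at 0. Cebpb and Plin2 under imiquimod lie above mock treatment in both genotypes, Dgat1 and Mgll do so in the controls, and Pparg overlaps in both.

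Each of the 2 receptors fell in 1 genotype. Tshr, the thyrotropin receptor, which fat cells express outside the thyroid, stood at 4.97, 5.08, 4.89, 4.91 and 4.98 in knockout skin under imiquimod against 5.15, 5.28, 6.7, 5.58 and 5.32 under mock treatment. The control arrays gave 5.25, 5.09, 4.27, 4.87 and 4.58 under imiquimod against 5.41, 5.34, 6.06, 5.78 and 6.01 under mock treatment. The groups did not overlap in either genotype. Tshr fell in controls (-0.91 ± 0.24 SE, adjusted p = 0.0158) and averaged over both genotypes (-0.77, adjusted p = 0.00144), and in knockouts was at -0.64, adjusted p = 0.0615, where it passed without replicate 1 of the mock group (0.0349). Without replicate 3 of the imiquimod controls the control call was lost (adjusted p = 0.0575).

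Acvr1c, the activin receptor ALK7 of fat cells, stood at 4.51, 5.02, 4.47, 4.85 and 5.25 in knockout skin under imiquimod against 5.05, 5.51, 6.66, 5.63 and 5.12 under mock treatment. Among controls the values were 6.01, 5.48, 5.11, 5.07 and 5.02 under imiquimod against 5.26, 5.39, 6.05, 5.3 and 6.14 under mock treatment. The groups overlapped in both genotypes. Acvr1c fell in knockouts (-0.77 ± 0.27 SE, adjusted p = 0.0474) and not in controls (-0.29, adjusted p = 0.598); the knockout call was lost when any of 12 of the 20 arrays was left out, to -0.51 (adjusted p = 0.139) without replicate 3 of the mock-treated knockouts.

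Ucp1, the heat-producing uncoupler of brown and beige fat, stood between 4.15 and 4.7 in 18 arrays. The other 2 were replicate 3 of the imiquimod knockouts at 6.37 and replicate 1 of the imiquimod controls at 6.29. Ucp1 did not pass in either genotype (0.5, adjusted p = 0.36 and 0.42, adjusted p = 0.535). Ppargc1a and Prdm16, regulators of thermogenic fat named after their values were seen, were not the highest of their groups in either array: Ppargc1a was 4.47 and Prdm16 5.35 in the knockout array, and 5.02 and 5.28 in the control array. Over all 11 thermogenic genes besides Ucp1, the mean was 5.89 in the knockout array, where its group ranged from 5.77 to 6.0. In the control array it was 6.08, where its group ranged from 5.81 to 6.23. Cidea and Elovl3, which rise in thermogenic fat and are also sebaceous gland genes, rose in both genotypes (1.06 and 1.95 in knockouts, 1.52 and 2.47 in controls). Of the 12 thermogenic genes measured, 2 rose and 1 fell in knockouts, and 2 rose and 0 fell in controls.

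Most fat genes varied more between the arrays of a group than the median gene did. This was not particular to fat genes. The SD within 1 group reached 2.76 for the hair gene Krtap8-1 (imiquimod controls). It reached 0.88 for the muscle gene Casq1 and 1.05 for the sebaceous gene Elovl3 (mock-treated controls). Among the fat genes it reached 1.31, for Thrsp (mock-treated knockouts). Pooled over the 4 groups, the within-group SD of 29 of the 31 genes was above that of the median gene, 0.18. On that pooled measure 25 were among the most variable 10% of all genes, led by Thrsp at 0.91 and Pck1 at 0.82. Cebpb at 0.165 and Plin5 at 0.153 varied least. Replicate 3 of the mock-treated knockouts was the highest of its group in 30 of the 31 genes, Cebpb being the exception, and its mean over the 31 was 8.56 against 7.21 to 7.67 in the other 4.

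Some arrays high in hair genes were low in fat genes within their group, and the reverse. Replicate 3 of the mock-treated knockouts and replicate 5 of the mock-treated controls had the lowest hair genes of their groups and were highest in 30 and 19 of the 31 fat genes. They were not high in fat genes alone. Both also had the highest means of their groups in muscle (9.24 and 9.56), macrophage, endothelial and fat-cell precursor genes. Exceptions were fibroblast genes in the knockout array and sebaceous gland genes in the control array. Replicate 5 of the imiquimod controls had the highest hair genes and was lowest in 19. Replicate 1 of that group did not follow: its hair genes, at 5.97, were the second highest of the group, and it was highest in 23 of the 31 fat genes. In the imiquimod knockouts, replicates 1 and 4 had the highest hair genes, at 9.06 and 7.37, and were lowest in 8 and 18. Between treatments, the hair genes had median differences of -2.172 in knockouts and -2.936 in controls, where the fat genes had -0.558 and 0.07. In each genotype alone 0 of the 25 hair genes passed (limma, 10 and 24 at an unadjusted p under 0.05), and averaged over both genotypes 23 fell. With the mean of the hair genes as a covariate, 22 of the 31 fell and 3 rose in knockouts, and 10 fell and 4 rose in controls. The share of all genes called in that fit is not given here, so these counts have no background beside them.

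**Figure D4:**
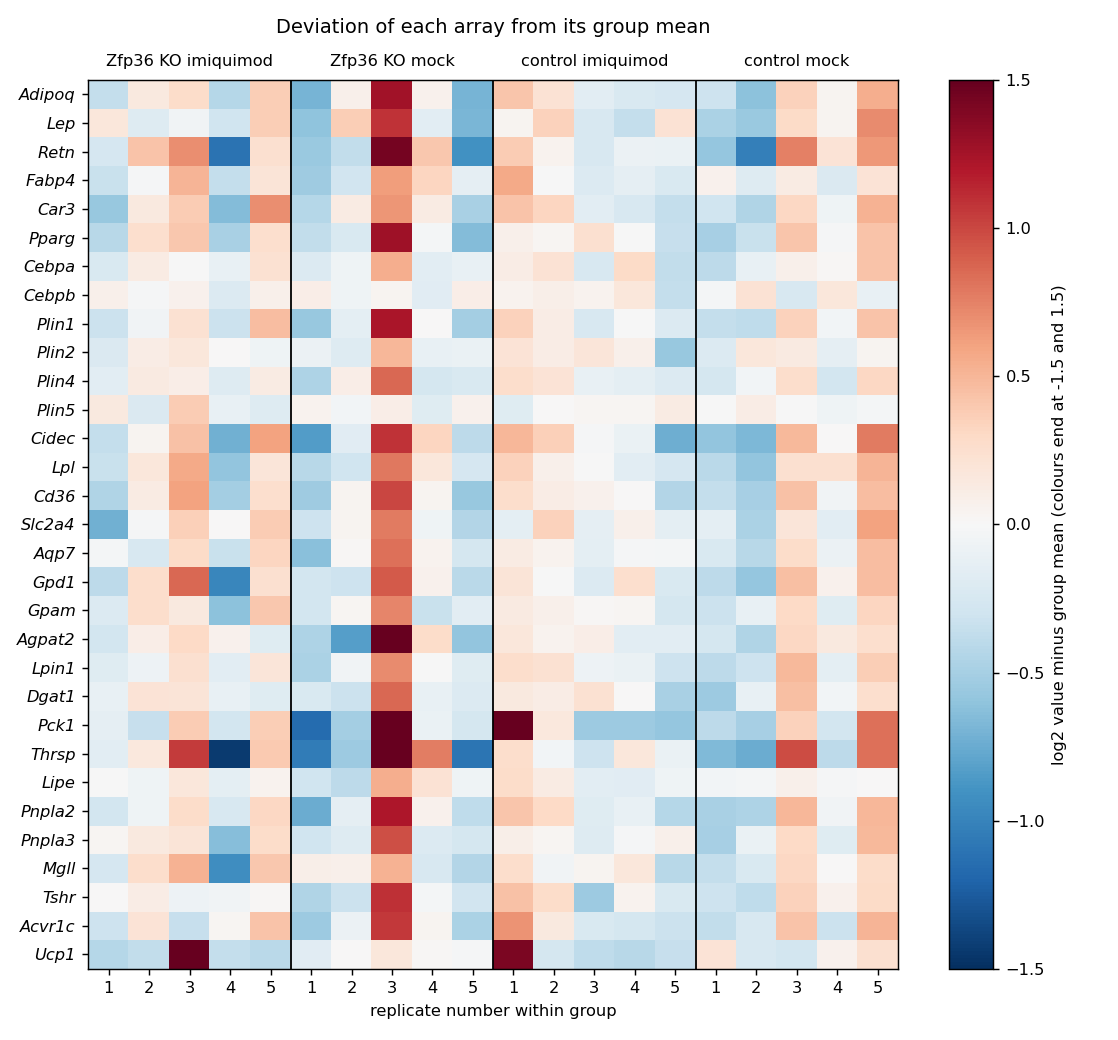
Each array's log2 value minus its group mean (colour, red high and blue low, ending at -1.5 and 1.5) for the 31 fat genes (rows) in the 20 arrays (columns, by group and replicate). Replicate 3 of the mock-treated knockouts is high in nearly all rows, and replicate 5 of the mock-treated controls is high in most.

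The mean of 20 muscle genes was 7.74 to 8.39 in imiquimod knockouts against 8.47 to 9.24 in mock-treated knockouts, and 8.4 to 9.28 in imiquimod controls against 8.3 to 9.56 in mock-treated controls. The knockout groups did not overlap and the control groups did. Beyond the covariate fits above, the part of the muscle and hair genes in the fat gene differences was not tested. Sebaceous gland genes moved beside the genes that rose: leaving out the fat genes, their mean over 10 genes was 7.21 to 8.19 in imiquimod knockouts against 7.13 to 7.71 in mock-treated knockouts, and 8.14 to 8.52 in imiquimod controls against 6.92 to 7.75 in mock-treated controls. Of these 10, 4 rose and 2 fell in knockouts, and 5 rose and 1 fell in controls. In knockouts 2 of 13 macrophage lineage markers rose and 1 fell, and in controls 3 rose and 1 fell. Their part in the rises was not tested. Among 10 fibroblast genes 3 fell in knockouts and 4 in controls. Among 10 endothelial genes 1 fell in knockouts and 0 passed in controls (limma, 1 at an unadjusted p under 0.05). Krt14, the keratin 14 gene of basal keratinocytes, averaged 12.13 under imiquimod and 10.86 under mock treatment in knockouts. In controls it averaged 11.6 and 10.74. The part of the epidermal share of RNA in the fat gene differences was not tested.

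**Figure D5:**
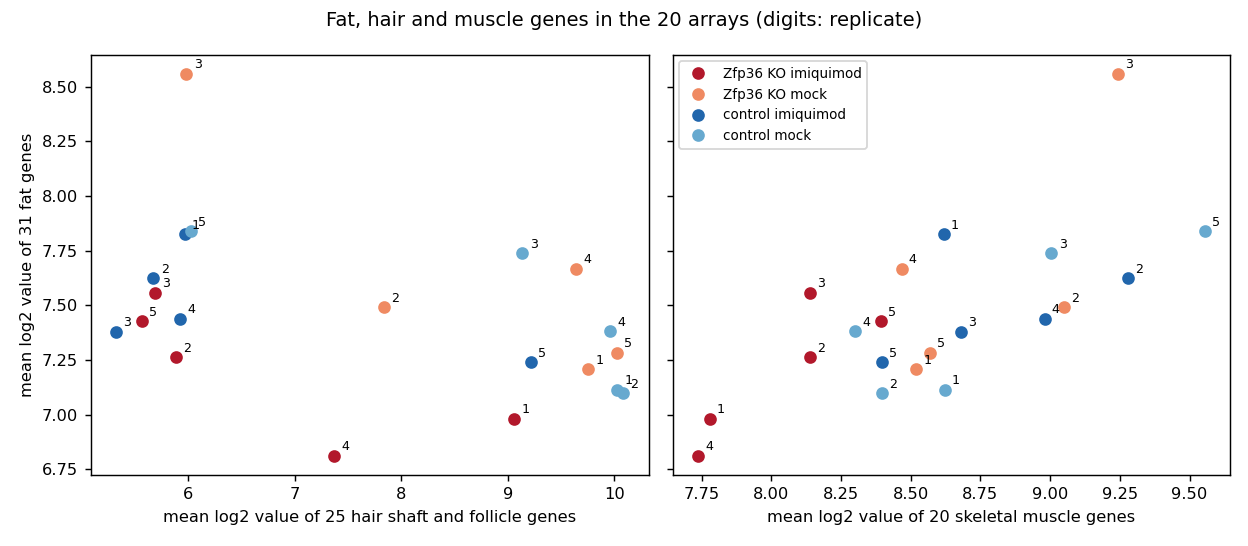
Mean log2 value of the 31 fat genes (vertical axis) against the mean of 25 hair shaft and follicle genes (left) and of 20 skeletal muscle genes (right) in each of the 20 arrays, coloured by group, with the replicate number as a digit. Replicate 3 of the mock-treated knockouts, at 5.98 in hair genes, is the highest array in fat genes, at 8.56.

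The second comparison asked whether loss of Zfp36 in keratinocytes changed these genes. In skin under imiquimod, 26 of the 31 had the lower mean in knockouts, as did 47.89% of all genes. The median difference between genotypes was -0.268 against 0.006 over all genes. Of the 31, 0 passed (limma, 5 at an unadjusted p under 0.05), where 0.546% of all genes passed and 0.171% fell. The smallest adjusted p was 0.247, of Mgll, which averaged 8.76 ± 0.6 in knockouts and 9.47 ± 0.26 in controls (SD, n = 5 each). Plin4, at -0.51 (95% interval -0.9 to -0.11, adjusted p = 0.328), was the only 1 of the 31 whose groups did not overlap, which held for 1.17% of all genes in that direction and 1.3% in the other. Car3 was at -0.79 (95% interval -1.34 to -0.23, adjusted p = 0.264). With the muscle covariate the median of the 31 was 0.15. The muscle mean itself narrowly separated the genotypes under imiquimod (7.74 to 8.39 in knockouts and 8.4 to 9.28 in controls). That fit therefore cannot separate muscle from genotype.

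Under mock treatment 26 of the 31 had the higher mean in knockouts, as did 11634 of all 22180 genes. The median of the 31 was 0.224 against 0.006 over all genes (0.03 without replicate 3 of the mock-treated knockouts). Many fat genes moved together between arrays, as in that replicate, so such counts do not hold 31 separate observations. Again 0 passed (limma, also 0 at an unadjusted p under 0.05), where 0.00902% of all genes did. The 95% intervals of the 31 differences reached from -0.86 to 1.67 on the log2 scale. Averaged over both treatments 0 of the 31 passed (limma, 1 at an unadjusted p under 0.05), where 0.0766% of all genes did, all of them higher.

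The difference between the responses of the genotypes was negative for 27 of the 31 and for 49.03% of all genes. The median of the 31 was -0.49 against 0.004 over all genes. None passed (limma, 9 of 31 at an unadjusted p under 0.05, smallest adjusted p = 0.501), where 0.018% of all genes did. The median was -0.269 without replicate 3 of the mock-treated knockouts, -0.35 without the 4 arrays set apart by hair genes and 0.0018 with the muscle covariate. The muscle mean itself separated the knockout groups by treatment, which limits the last of these fits. A fall that passed in knockouts alone is therefore not shown to differ from that in controls.

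Of 46 fat-cell genes outside the 31, 14 fell and 2 rose in knockouts, with a median of -0.204, and 5 fell and 9 rose in controls, with a median of 0.092. Itih5, a matrix protein gene abundant in fat, was 2.95-fold lower in knockouts (-1.56 ± 0.21 SE, adjusted p = 2.44e-05) and 1.93-fold lower in controls (-0.95 ± 0.21 SE, adjusted p = 0.0054). Npr3, the clearance receptor for natriuretic peptides, was at -1.49 in knockouts (adjusted p = 0.0013) and -1.46 in controls (adjusted p = 0.0028), and Angptl4, an inhibitor of Lpl, fell in both genotypes (-0.96, adjusted p = 0.0106 in knockouts and -0.96, adjusted p = 0.0189 in controls). Abhd5, the activator of the main fat-cell lipase, which skin also needs for its barrier, rose in both (0.66, adjusted p = 3.89e-05 in knockouts and 0.69, adjusted p = 4.11e-05 in controls). Acacb, which makes malonyl-CoA at mitochondria, rose in controls (1.17, adjusted p = 0.00341) and not in knockouts (0.18, adjusted p = 0.694).

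Of 17 genes of fatty acid oxidation, 1 rose and 1 fell in knockouts and 4 rose in controls, with medians of 0.058 and 0.212. Cpt2, which hands fatty acids over inside mitochondria, rose in both (0.39 in knockouts and 0.45 in controls), and Slc25a20, the carnitine carrier, rose in controls (0.5, adjusted p = 0.00359) and did not pass in knockouts (0.21, adjusted p = 0.202). Among 9 markers of fat-cell precursors 3 fell in knockouts, led by Cd34, a surface protein also found on vessels and hair follicle stem cells (-0.94, adjusted p = 0.0022), and Ebf1, an early factor of the lineage (-0.79, adjusted p = 0.00762). In controls Cd34 was at -0.58, adjusted p = 0.0747 and Ebf1 at -0.23, adjusted p = 0.555, and 0 of the 9 passed (limma, 3 at an unadjusted p under 0.05).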

How the data were processed

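The authors deposited values of 41345 probe sets on each of 20 arrays, made from total RNA with an Affymetrix labelling kit, per the labels' protocols. The deposited values were taken as log2 from their range, 1.41 to 13.33 with 2 decimals; log base, summarisation, normalization, software and build: not given in the sources used here. Array platform symbols named the probe sets: 23521 had 1 symbol, 1814 several and 16010 none, and the brightest of a gene's single-symbol probe sets was kept (22180 genes, no filter). One fit of 4 group means was made in R 4.3.3 with limma 3.58.1 (lmFit, eBayes; 16 residual degrees of freedom), two-sided, with Benjamini-Hochberg adjustment over all 22180 genes at 0.05. The number of arrays limits the precision. The fit was tested on simulated data. Alternatives were fits of only the groups compared, a replicate block, array weights, a robust or trended prior, quantile normalization, median centring, the mean of probe sets, no genes from the 30% dimmest, muscle and hair covariates, and leaving out arrays; second probe sets were chosen after seeing the data. Same-numbered arrays did not deviate together (median correlation -0.067 over 30 pairs), so numbers were not taken to pair samples. Members, lists and the rule for named genes (per role, the 2 members with the smallest adjusted p; per list, the largest changes) were chosen with earlier results of these data known. Of arrays tied for lowest or highest, the first was counted.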

Additional observations from a re-analysis of the deposited data

Results flagged for a closer look

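In each group of 5 arrays, a value was singled out where its gap to the nearest array exceeded 0.71 of the group's range. Of 128 groups of values tested (31 genes and their mean in 4 groups), 11 were singled out, where chance gives about 1 in 20, or 6.4. In replicate 3 of the mock-treated knockouts, Cebpa was 8.42 against 7.67 to 7.81 in the other arrays, Plin2 8.15 against 7.46 to 7.56, Dgat1 7.86 against 6.67 to 6.89, Pnpla3 7.91 against 6.64 to 6.75 and Tshr 6.7 against 5.15 to 5.58. In replicate 5 of the imiquimod controls, Plin2 was 8.11 against 8.76 to 8.89 and Cebpb 7.82 against 8.23 to 8.35. Replicate 4 of the imiquimod knockouts had Pnpla3 at 5.78 against 6.44 to 6.69. Fabp4 was 10.58 in replicate 1 of the imiquimod controls against 9.78 to 10.01. Ucp1 was 6.37 in replicate 3 of the imiquimod knockouts against 4.4 to 4.47, and 6.29 in replicate 1 of the imiquimod controls against 4.46 to 4.61.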

How the results depend on the processing

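The number of the 31 fat genes that changed under imiquimod in knockouts (14) was 9 with only these groups in the fit, 7 with the muscle covariate, 25 with the hair covariate, and 8 without the array of each group farthest in hair genes; it was 11 and 14 in controls (7) with the muscle and hair covariates, and 26 with the hair covariate over both genotypes (16). Between genotypes under imiquimod it was 1 with the hair covariate (Car3, 0 without it). Leaving out each array gave 9 to 15 in knockouts, lowest without replicate 4 under imiquimod, and 6 to 11 in controls, highest without replicate 3 of the mock-treated knockouts. Of 37 calls on these genes in the 3 imiquimod comparisons, 18 held in every setting, and no called difference changed sign; the cause of the lost calls was not tested. With the replicate number as a block (replicate block), 12 were called in knockouts and 8 in controls. For the imiquimod comparisons, counts over all genes with the muscle or hair covariate are not given here. Fitting only the groups compared could not be done for averages and the difference in responses, which use all groups.

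Over all genes, calls of imiquimod in controls (2404) numbered 3697 with array weights, and 1651 rose and 677 fell with arrays centred on their medians (1435 and 969 without). Knockout against control under mock treatment (2) gave 0 with only these groups, 4 with array weights, 1 with median centring, 4 and 5 with the muscle and hair covariates, 1 without the arrays set apart by hair genes, and 0 to 4 leaving out each array. Under imiquimod (121) it gave 17, 78 with the replicate block, 242 with array weights, 207 and 334 with the covariates, 54 without those arrays, and 45 to 174 leaving out each. Over both treatments (17) it gave 10, 46, 71 and 88 (block, weights, muscle, hair) and 8 to 50. The difference in responses (4) gave 8, 10 and 13 (weights, muscle, hair) and 4 to 8.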
